A study of Mus musculus with 6 samples.

Results

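The subject is 44 genes that carry cells through mitosis, chosen by name and grouped by role: mitotic kinases and their partners, the spindle checkpoint and anaphase, kinesins and other spindle proteins, the centromere, kinetochore and passenger complex, and condensin with topoisomerase II. Their mRNA was measured in mouse embryonic fibroblasts, connective tissue cells taken from embryos and grown in culture, on Illumina Mouse-6 bead arrays. The 6 arrays formed 3 groups of 2. They were wild-type cells, IKKa-/- cells, which lack the IKKa kinase and are called IKKa-null here, and IKKa+/+reconstituted cells, which the labels describe as carrying IKKa again. All groups were cultured in medium with fetal calf serum and kept below confluency, and no treatment or age is given. IKKa is a catalytic subunit of the IkB kinase complex, best known for activating NF-kB transcription factors. Its own gene, Chuk, is not analysed here, so the genotype labels were not checked against its mRNA.

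Of the 44 genes, 41 had a probe, with 78 probes in all, among 17658 genes named on the array. Ccnb1, Cenpf and Espl1 are not analysed here. At least 1 probe of 31 genes was above background on 2 or more of the 6 arrays, and these 31 were tested, 28 of them through a probe that was above background on all 6 arrays. The other 10 were not tested: Ccna2, Ccnb2, Nek2, Wee1, Bub1, Ttk, Ube2c, Kif11 and Kif20a were above background on 0 arrays and Ncapg on 1, with intensities from 72.6 to 208.4 units. Nuf2 passed that filter through the wild-type arrays alone, so its difference was partly set by the filter.

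During mitosis, the kinase CDK1 with its cyclins drives chromosome condensation and spindle assembly, kinetochores attach chromosomes to microtubules, and the checkpoint holds back anaphase until every kinetochore is attached. Most of these genes are transcribed late in the cell cycle. Their promoters are known for the cell cycle homology region (TTTGAA or TTCGAA), which the MuvB complex binds, and for CCAAT boxes, which NF-Y binds.

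Both motifs were searched, on both strands, in RefSeq promoter windows of GRCm38.p6 from 250 bases before to 50 bases after each annotated start, of which 34 of the 44 genes had 1 or more. TTCGAA reads the same on both strands, and CCAAT and the homology region can share a T. At least 1 homology region lay in the windows of 25 of the 34 genes (73.5%), beside 21.7% of 27025 genes. A homology region starting between 50 bases before and 45 bases after the start was present in 23 (67.6%), beside 6.12% of all genes. A CCAAT box was present in 26 (76.5%), beside 41.1%, and both a CCAAT box and a homology region near the start in 22 (64.7%), beside 2.57%. These are letter matches in a set chosen for its function, and nothing was tested on them.

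The 130 bases before the start are shown for the 4 genes whose difference between IKKa-null and wild type was called in every alternative fit that tested them (Plk1, Pttg1, Nuf2, Kif2c), for Ncapd2, and for Cdc20 and Cdk1, which were not called in any comparison. They are written 5′ to 3′ on the gene's strand, and capitals mark the homology region and the CCAAT box on either strand, so that ATTGG is CCAAT and TTCAAA is TTTGAA on the opposite strand. The positions are chr7:122159305-122159434 (plus strand) for Plk1, chr11:43425982-43426111 (minus) for Pttg1, chr1:169531465-169531594 (minus) for Nuf2, chr4:117178773-117178902 (minus) for Kif2c, chr6:125191587-125191716 (minus) for Ncapd2, chr4:118437344-118437473 (minus) for Cdc20 and chr10:69352913-69353042 (minus) for Cdk1.
Plk1: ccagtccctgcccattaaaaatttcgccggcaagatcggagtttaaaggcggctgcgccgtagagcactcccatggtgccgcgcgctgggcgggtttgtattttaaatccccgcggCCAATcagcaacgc
Pttg1: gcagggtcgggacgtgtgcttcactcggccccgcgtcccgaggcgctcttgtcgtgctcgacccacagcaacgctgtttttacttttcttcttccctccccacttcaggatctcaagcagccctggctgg
Nuf2: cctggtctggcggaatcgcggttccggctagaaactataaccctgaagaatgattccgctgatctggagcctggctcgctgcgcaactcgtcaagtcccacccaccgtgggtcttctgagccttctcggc
Kif2c: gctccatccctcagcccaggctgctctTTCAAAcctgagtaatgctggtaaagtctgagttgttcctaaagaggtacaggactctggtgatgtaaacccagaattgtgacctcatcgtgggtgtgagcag
Ncapd2: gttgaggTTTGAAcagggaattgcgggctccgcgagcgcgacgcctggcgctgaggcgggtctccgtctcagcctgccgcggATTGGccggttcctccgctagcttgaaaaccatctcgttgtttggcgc
Cdc20: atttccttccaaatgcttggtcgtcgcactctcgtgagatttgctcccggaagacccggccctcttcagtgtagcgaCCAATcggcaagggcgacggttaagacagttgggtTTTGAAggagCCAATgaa
Cdk1: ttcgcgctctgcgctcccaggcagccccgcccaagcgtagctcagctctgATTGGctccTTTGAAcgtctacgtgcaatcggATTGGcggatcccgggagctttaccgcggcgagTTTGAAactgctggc
Cdc20, Cdk1 and Ncapd2 have both motifs within these bases, Kif2c has a homology region alone, Plk1 has a CCAAT box here and a homology region that starts 31 bases into the transcript, and Pttg1 and Nuf2 have neither in their windows. Plk1, Ncapd2, Cdc20 and Cdk1 thus have both motifs in their windows. The homology region of Ncapd2 starts at position -123, outside the range counted as near the start above. How the motifs relate to the changes was not tested.

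**Figure D1:**
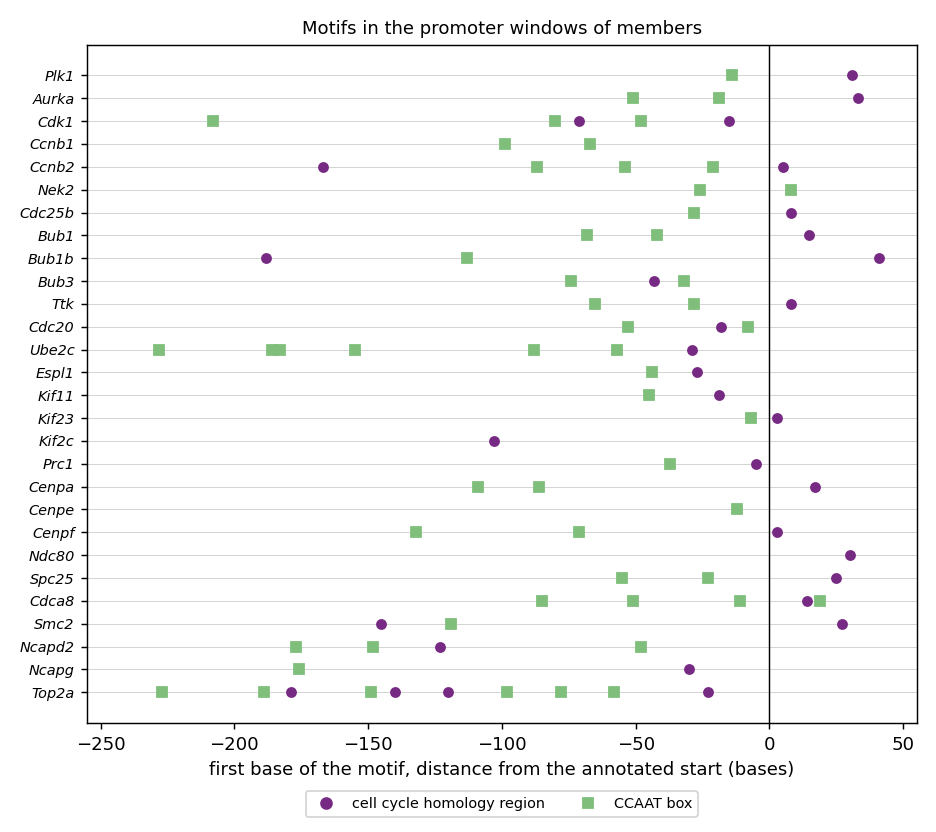
Positions of the cell cycle homology region (purple circles) and the CCAAT box (green squares), on either strand, in the promoter windows of the 28 genes with a match in the window listed first for them; the x axis gives the distance of the motif's first base from the annotated start in bases. The other 6 genes with a window (Birc5, Mad2l1, Ncaph, Nuf2, Nusap1 and Pttg1) had neither motif. Homology regions cluster around the start, with CCAAT boxes mostly upstream of them.

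The arrays had median intensities from 111.1 to 123.1 units against 100.8 to 114.45 for background probes, and 9197 to 11067 gene probes per array were above background. Replicate arrays correlated at 0.968 to 0.979 over the tested probes. Of the fibroblast markers fixed for the check, 11 of 12 were above background on 2 or more arrays, with Lum on 0, and their summed intensity was 8583.3 to 9193.6 in wild type, 12578.4 to 12969.2 in IKKa-null and 22840.5 to 30182.0 in reconstituted cells. The 6 skeletal muscle markers were below background on every array, and so were 6 of 8 blood markers, Ptprc, Adgre1 and Itgam among them. Epithelial markers were above background for 4 of 7, with Cdh1, Krt8 and Krt18 on 0 arrays, and summed to 1246.3 to 1404.1, 1444.0 to 1481.8 and 781.8 to 872.3 in the same order of groups. Within that list Krt7 was at least 4.71-fold higher in IKKa-null than in wild type (adjusted p = 0.000265, limma) and Krt14 had a log2 change of -1.86 (adjusted p = 0.00081). Krt7 was above background on the IKKa-null arrays alone, so its difference was partly set by the filter. Of 7 endothelial markers 2 were above background, with sums of 2155.5 to 2290.2, 1245.0 to 1352.0 and 1467.4 to 1956.2: Flt1 had a log2 change of -1.96 in IKKa-null against wild type (adjusted p = 0.000907) and Eng was at least 1.88-fold higher (adjusted p = 0.00196). Reconstituted and IKKa-null cells also differed in these markers. Of 11 tested fibroblast markers 5 were higher in reconstituted cells and 0 lower, beside 6.89% higher over all genes. Their log2 changes reached 5.31 (Thy1). Of 4 tested epithelial markers 3 (Krt7, Krt14 and Krt19) were lower, beside 7.41% of all genes. None of the 3 was above background on a reconstituted array. Krt7 was at least 4.93-fold lower, a difference again partly set by the filter. The part of these markers in the results was not tested in any comparison. The large T antigen of SV40 inactivates p53 and the retinoblastoma protein, and its target gave 4431.6 and 6076.1 units in the wild-type samples, 88.6 and 111.8 in IKKa-null and 212.3 and 203.2 in reconstituted cells, where it was above background on both arrays, unlike in IKKa-null. The target for the neomycin resistance gene gave 106.5 and 117.8, 2433.1 and 2230.7, and 3458.1 and 2638.1. In every comparison with wild type, IKKa status and the large T signal cannot be told apart.

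The first comparison, IKKa-null against wild-type cells, asked how mRNA levels differ where IKKa is absent. Of the 31 tested genes, 15 fell and 1, Plk1, rose (limma, Benjamini-Hochberg adjusted p under 0.05 over all 11659 probes tested). Over all 7407 tested genes, 15.4% fell and 13.6% rose, 29% in either direction. The median log2 change of the 31 genes was -0.68 beside -0.12 for all genes. Changes were below 0 in 28 of the 31, beside 4265 of all 7407 genes. Leaving out Nuf2, which entered the test through wild type, 14 of 30 fell. On the normalized log2 scale, which is used for every statement on overlap and order of arrays below, the 2 groups did not overlap in 26 of the 31, beside 70.4% of all genes. Without wild-type replicate 1, wild-type replicate 2 or IKKa-null replicate 2 the count of 16 called genes dropped to 5, and without IKKa-null replicate 1 to 8. Plk1, Pttg1, Kif2c and Nuf2 were called each time, and Nuf2 also with no filter on dim probes (adjusted p = 0.000733, limma); the other 12 lost the call in at least 1 of these fits, with changes from -1.16 to -0.49. Under median scaling the same 4 genes were the only ones called. In bulk RNA, fewer cells in mitosis and less mRNA per cell cannot be told apart.

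In reconstituted against IKKa-null cells 2 of the 31 genes rose (Kif2c and Ncapd2) and 1 fell (Pttg1), beside 14.3% called in either direction over all genes, 6.89% higher and 7.41% lower. The median change was 0.15 beside -0.02, the groups did not overlap in 15 of 31 beside 60.1% of all genes, and under median scaling the median turned to -0.08. Without either IKKa-null array limma called 0 of the 31 genes, with 3 and 5 at an unadjusted p under 0.05, and without reconstituted replicate 2 it called 1, Ncapd2. Of the 15 genes that fell in IKKa-null against wild-type cells, 12 were not called between reconstituted and IKKa-null cells.

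In reconstituted against wild-type cells 8 genes fell and Plk1 rose, beside 21.3% lower, 15.6% higher and 36.9% in either direction over all genes. Leaving out Nuf2, which entered the test through wild type, 7 of 30 fell. The median was -0.39 beside -0.14, and 24 of 31 genes had groups that did not overlap, beside 71.9%. Both comparisons with wild type use the same 2 wild-type arrays. Of the 15 genes lower in IKKa-null, 7, Nuf2 among them, were also lower in reconstituted than in wild-type cells. The shared arrays make such an overlap likelier, and its share over all genes is not given here. Bub3 was called lower in reconstituted but not in IKKa-null cells, which were not called different from each other (adjusted p = 0.423, limma). Without wild-type replicate 1 the 9 calls dropped to 4 (Plk1, Pttg1, Nuf2 and Aurka) and without reconstituted replicate 2 to 5, the same 4 and Ncaph.

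**Figure D2:**
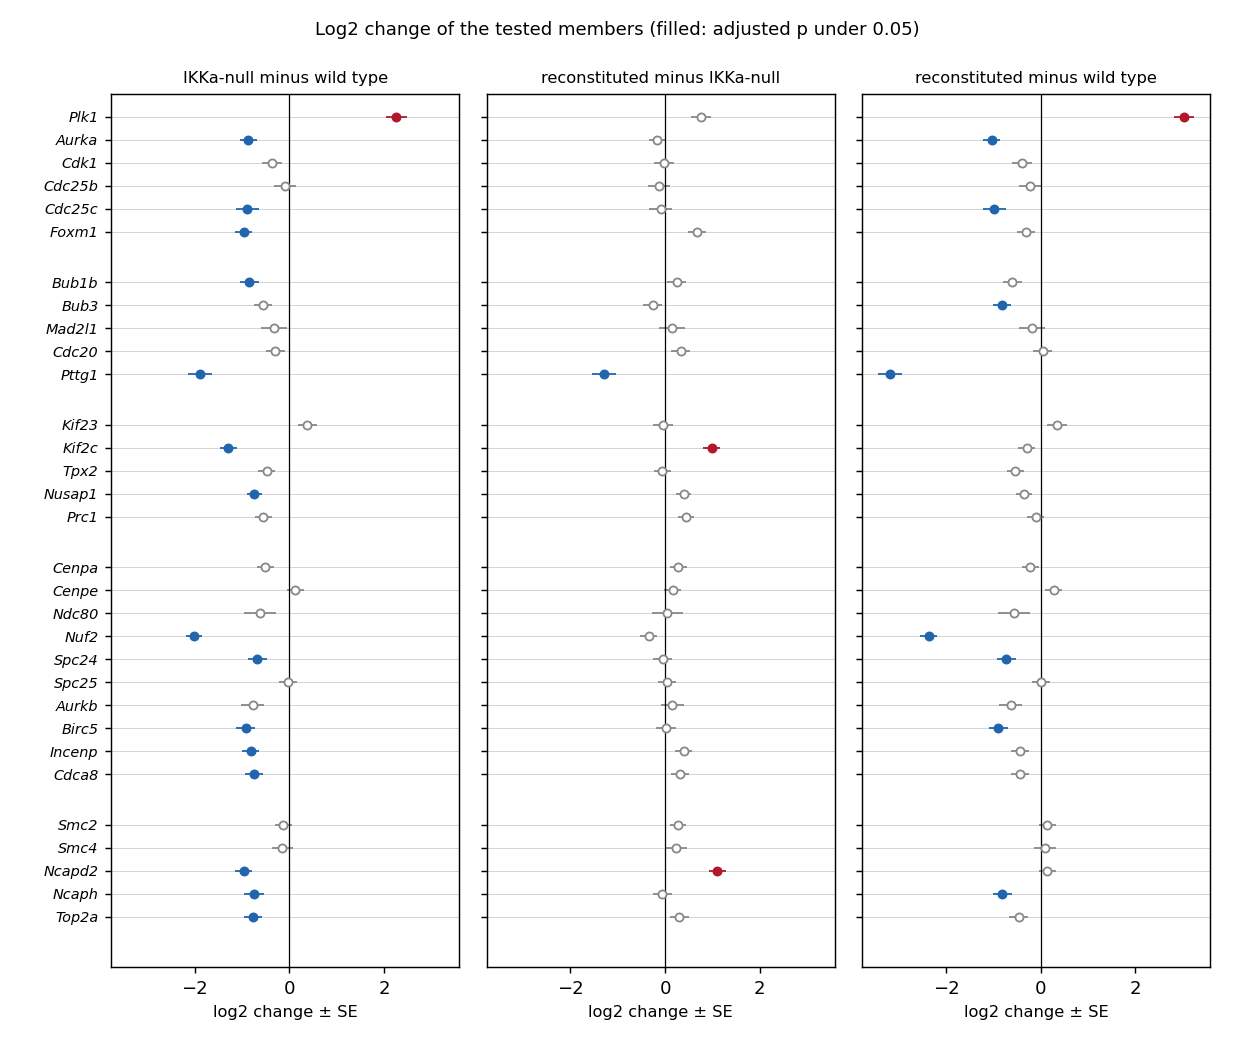
Log2 change (x axis) ± SE of the 31 tested genes by role, each gene by its brightest probe, in the 3 comparisons, with 2 arrays a group. Filled red and blue points passed an adjusted p of 0.05 (limma). In the left panel 15 points are blue and only Plk1 is red; in the middle panel Kif2c and Ncapd2 are red and Pttg1 is blue.

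Among the kinases and mitotic entry genes, 1 of 6 tested genes rose and 3 fell in IKKa-null cells, beside 13.6% and 15.4% of all genes. Each role holds few genes, and differences between roles were not tested. Plk1, the polo-like kinase that promotes mitotic entry, centrosome maturation and cytokinesis, gave 184.2 and 264.2 intensity units in wild type, 672.6 and 850.3 in IKKa-null and 1340.7 and 871.5 in reconstituted cells. Each wild-type array lay below every other array. The log2 change was 2.26 ± 0.219 (± SE, 4.80-fold, adjusted p = 0.000842, limma) in IKKa-null and 3.03 ± 0.219 (8.15-fold, adjusted p = 0.000276) in reconstituted cells against wild type, and 1.67 and 2.36 with no background correction. The further difference of 0.76 ± 0.219 between reconstituted and IKKa-null cells was not called (adjusted p = 0.0652, limma). It was called with no background correction, with an offset of 50, on the deposited matrix and among probes above background on all 6 arrays. The matrix fit repeats the fit with no background correction and adds no separate evidence.

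Aurka, Aurora A, the kinase of centrosome maturation and spindle poles, moved the other way. It gave 1199.1 and 1456.0 units in wild type, 809.0 and 834.7 in IKKa-null and 868.3 and 499.0 in reconstituted cells, so both wild-type arrays were the highest. Its log2 change was -0.87 ± 0.175 in IKKa-null (1.83-fold lower, adjusted p = 0.0121, limma) and -1.04 ± 0.175 in reconstituted cells (2.06-fold lower, adjusted p = 0.0052). Plk1 and Aurka, which act together at centrosomes, thus differed from wild type in opposite directions in both lines.

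Cdc25c, a phosphatase that activates CDK1, gave 370.4 and 358.9 units in wild type, 270.4 and 237.2 in IKKa-null and 277.7 and 198.4 in reconstituted cells. It was -0.89 ± 0.244 in IKKa-null (adjusted p = 0.0345, limma) and -0.98 ± 0.244 in reconstituted cells (adjusted p = 0.0206) on the log2 scale, and wild type was above both. Foxm1, a transcription factor of late cell cycle genes, gave 604.7 and 649.6 in wild type, 350.5 and 418.6 in IKKa-null and 552.2 and 441.0 in reconstituted cells. Its change was -0.97 ± 0.188 in IKKa-null (1.97-fold lower, adjusted p = 0.0105). The reconstituted arrays lay between the other groups, 0.67 ± 0.188 above IKKa-null, which missed the threshold (adjusted p = 0.0614) but was called under the same 4 alternatives as for Plk1, and not called against wild type (adjusted p = 0.233).

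Cdk1 itself gave 1635.6 and 2418.1 units in wild type, 1460.8 and 2030.3 in IKKa-null and 1691.9 and 1252.1 in reconstituted cells. The deposited intensities overlapped in every pair of groups, and after normalization both wild-type arrays lay above the other 4, but the change of -0.37 ± 0.21 in IKKa-null was not called (adjusted p = 0.223, limma). Cdc25b, the phosphatase that starts CDK1 activation at centrosomes, gave 213.7 to 305.0 units over the 6 arrays and was not called in any comparison.

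**Figure D3:**
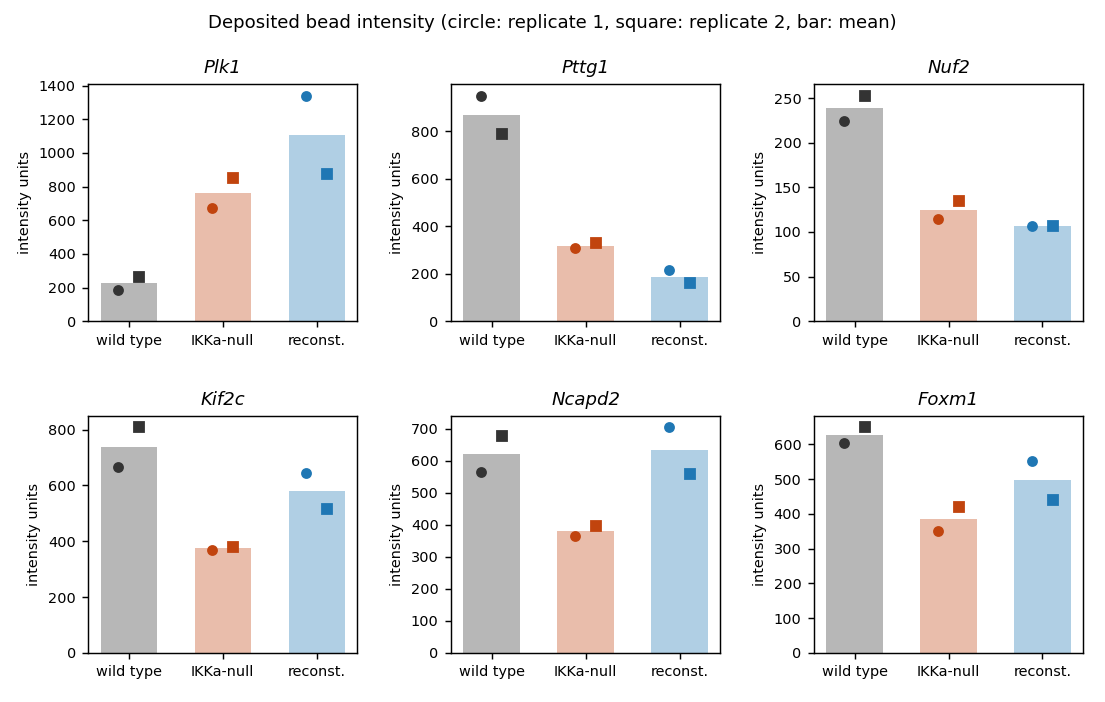
Deposited bead intensity (y axis, linear, from 0) of 6 genes on each of the 6 arrays; circles are replicate 1, squares replicate 2 and bars the mean of 2 arrays. Plk1 is lowest in wild type, Pttg1 and Nuf2 are highest there, and for Kif2c, Ncapd2 and Foxm1 the 2 IKKa-null arrays are the lowest.

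Of the 5 tested checkpoint and anaphase genes, 2 fell in IKKa-null cells, beside 15.4% of all genes. Pttg1, securin, which holds separase inactive until anaphase, gave 950.6 and 790.5 units in wild type, 307.0 and 328.0 in IKKa-null and 214.9 and 159.7 in reconstituted cells. The 3 groups did not overlap, and the last of these values was not above background. Its log2 change was -1.88 ± 0.253 in IKKa-null against wild type (3.68-fold lower, adjusted p = 0.00289, limma), -1.30 ± 0.253 in reconstituted against IKKa-null (2.47-fold lower, adjusted p = 0.0188) and -3.18 ± 0.253 in reconstituted against wild type (9.08-fold lower, adjusted p = 0.000375). With no background correction the last of these was -2.27. Pttg1 was the only one of the 31 genes with a call in all 3 comparisons, and its call between reconstituted and IKKa-null cells was lost without either IKKa-null array or reconstituted replicate 2.

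Bub1b, the checkpoint kinase-like protein BubR1, gave 635.2 and 765.3 units in wild type, 417.9 and 488.3 in IKKa-null and 641.1 and 345.2 in reconstituted cells. The reconstituted arrays overlapped the IKKa-null values, and the change was -0.85 ± 0.2 in IKKa-null (1.80-fold lower, adjusted p = 0.0208, limma) and -0.60 ± 0.2, not called, in reconstituted cells (adjusted p = 0.0548). Bub3, its binding partner at kinetochores, gave 396.3 and 466.1 in wild type, 302.9 and 382.9 in IKKa-null and 354.9 and 229.0 in reconstituted cells. Wild type was the highest, with a change of -0.56 ± 0.197 in IKKa-null (adjusted p = 0.0752) and of -0.82 ± 0.197 in reconstituted cells (1.77-fold lower, adjusted p = 0.0182).

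Mad2l1, the checkpoint protein that binds CDC20, gave 583.6 and 1127.9 units in wild type, which overlapped the 524.9 to 888.1 units of the other 4 arrays. Cdc20, the activator of the anaphase-promoting complex, gave 1037.7 and 1305.8 in wild type, 897.0 and 1192.4 in IKKa-null and 1268.6 and 1007.7 in reconstituted cells. The deposited intensities overlapped between all groups, and after normalization both IKKa-null arrays lay below the other 4. Its 3 tested probes had limma adjusted p-values from 0.0759 to 0.302 between IKKa-null and wild type.

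Of the 5 kinesins and spindle proteins tested, 2 fell in IKKa-null cells, beside 15.4% of all genes. Kif2c, the microtubule-depolymerizing kinesin MCAK that corrects faulty kinetochore attachments, gave 666.1 and 808.4 units in wild type, 367.0 and 381.0 in IKKa-null and 644.7 and 515.1 in reconstituted cells. The IKKa-null arrays were the lowest. The log2 change was -1.29 ± 0.18 in IKKa-null (2.45-fold lower, adjusted p = 0.00325, limma) and 0.99 ± 0.18 in reconstituted against IKKa-null (1.98-fold higher, adjusted p = 0.0152), and reconstituted against wild type was not called (adjusted p = 0.22). The call between reconstituted and IKKa-null cells was lost without either IKKa-null array, without reconstituted replicate 2 and under median scaling.

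Nusap1, which bundles spindle microtubules near chromosomes, gave 1328.4 and 1425.5 in wild type, 896.8 and 939.7 in IKKa-null and 1318.4 and 815.5 in reconstituted cells. IKKa-null lay below wild type, with a change of -0.74 ± 0.166 (1.67-fold lower, adjusted p = 0.0173, limma), and both reconstituted arrays lay between the other groups after normalization. Tpx2, an activator of Aurora A on spindle microtubules, was -0.48 ± 0.177 in IKKa-null (adjusted p = 0.0833) and -0.54 ± 0.177 in reconstituted cells (adjusted p = 0.0507), neither called. Prc1, which bundles the antiparallel microtubules of the midzone, gave 4549.0 and 4716.6 units in wild type and 3486.0 and 3860.7 in IKKa-null cells, a change of -0.55 ± 0.172 that fell just short of the threshold (adjusted p = 0.0518). Kif23, the kinesin of the central spindle that is required for cytokinesis, was higher on both IKKa-null arrays (1409.5 and 1569.6 units) than in wild type (983.6 and 1194.1), at 0.38 ± 0.205, which was not called (adjusted p = 0.198).

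**Figure D4:**
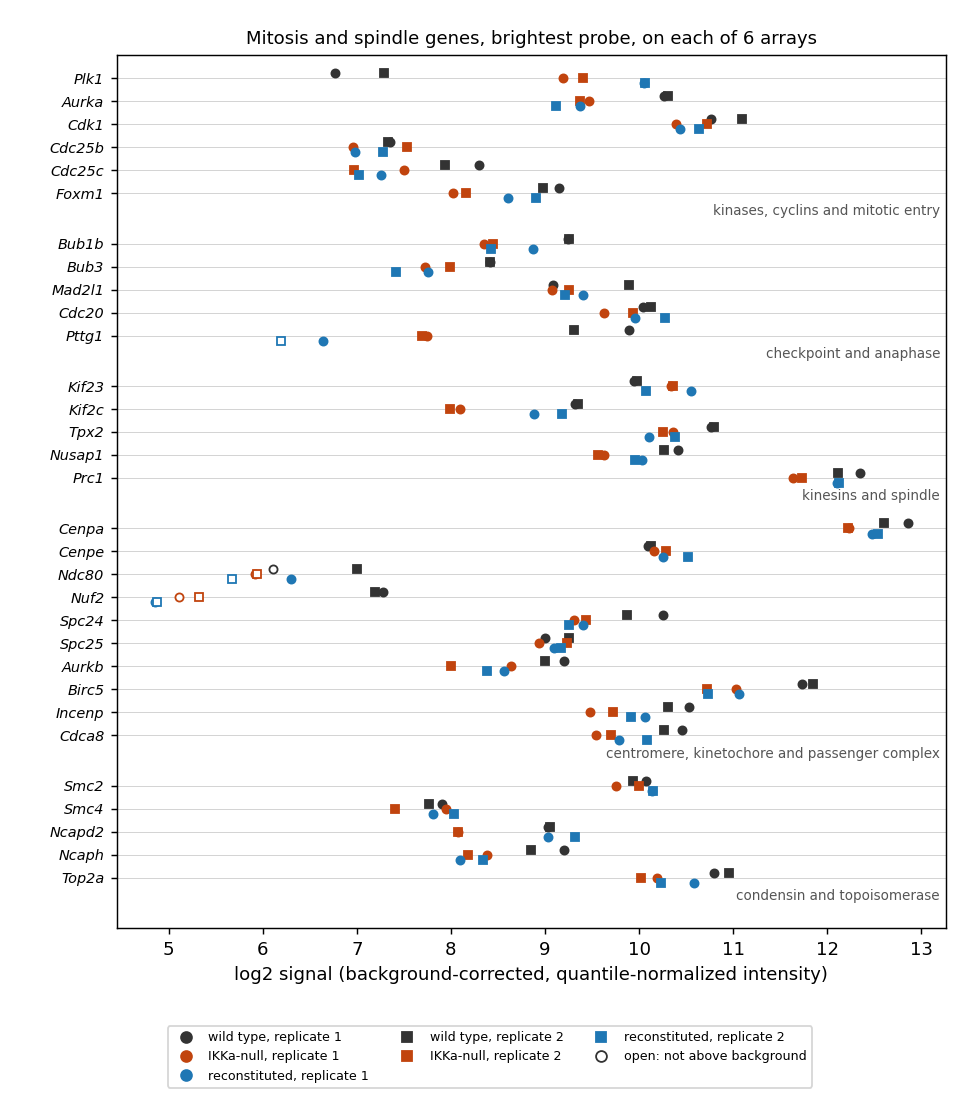
Log2 signal (x axis, background-corrected and quantile-normalized) of the 31 tested genes on each of the 6 arrays, by role, each gene by its brightest probe; dark symbols are wild type, orange IKKa-null and blue reconstituted, with open symbols where the probe was not above background. Dark symbols lie to the right of the orange ones for most genes, the reverse holds for Plk1, and the open symbols belong to Pttg1, Ndc80 and Nuf2.

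The centromere, kinetochore and passenger complex genes had 10 tested members, of which 5 fell in IKKa-null cells: Nuf2, Spc24, Birc5, Incenp and Cdca8. Nuf2 entered the test through wild type alone, so its part in this count was partly set by the filter. Over all genes 15.4% fell. Nuf2, a subunit of the NDC80 complex that grips microtubules, gave 224.0 and 252.9 units in wild type, 114.6 and 134.3 in IKKa-null and 106.6 and 107.1 in reconstituted cells. It was above background on the wild-type arrays alone, so on the background-corrected scale the folds are bounds set by each array's lowest signal above background: at least 2.35-fold lower in IKKa-null (adjusted p = 0.000501, limma) and at least 2.03-fold lower in reconstituted cells (adjusted p = 0.000272). With no background correction the differences were smaller, with log2 changes of -0.97 and -1.20. Ndc80, the partner of NUF2, gave 150.5 and 232.8 units in wild type, 147.9 and 163.8 in IKKa-null and 188.0 and 141.7 in reconstituted cells. It was above background on 1 wild-type and 1 reconstituted array. After normalization both IKKa-null arrays lay below wild type and the reconstituted arrays overlapped both groups, and no comparison was called.

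Spc24 and Spc25 pair to anchor the NDC80 complex to the centromere. Spc24 gave 1191.9 and 1112.7 units in wild type, 727.9 and 871.4 in IKKa-null and 888.2 and 537.1 in reconstituted cells, and wild type was the highest. It was -0.68 ± 0.197 in IKKa-null (1.61-fold lower, adjusted p = 0.0398, limma) and -0.73 ± 0.197 in reconstituted cells (1.66-fold lower, adjusted p = 0.0264). Spc25, in contrast, gave 554.0 and 761.0, 584.1 and 766.0, and 734.5 and 511.5 units in the same order of groups, ranges that nearly coincided, and it was not called.

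The chromosomal passenger complex unites Aurora B with survivin (Birc5), Incenp and borealin (Cdca8). Birc5 gave 3051.8 and 3904.7 units in wild type, 2250.6 and 2017.3 in IKKa-null and 2525.3 and 1322.9 in reconstituted cells, a change of -0.92 ± 0.203 in IKKa-null (1.89-fold lower, adjusted p = 0.0169, limma) and of -0.90 ± 0.203 in reconstituted cells (1.86-fold lower, adjusted p = 0.0145). Incenp, the scaffold, gave 1407.8 and 1454.7 in wild type, 816.0 and 1032.2 in IKKa-null and 1346.6 and 789.5 in reconstituted cells, with -0.82 ± 0.186 in IKKa-null (1.77-fold lower, adjusted p = 0.0183). Both wild-type arrays were the highest for these 2 genes.

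Cdca8, which targets the complex to centromeres, gave 1359.5 and 1423.5 units in wild type, 846.7 and 1022.2 in IKKa-null and 1134.8 and 885.5 in reconstituted cells, with -0.75 ± 0.19 in IKKa-null (1.68-fold lower, adjusted p = 0.0269, limma). The kinase of the complex, Aurkb, gave 622.2 and 659.3 in wild type, 489.0 and 384.4 in IKKa-null and 537.3 and 338.5 in reconstituted cells. Wild type was again the highest, but the change of -0.78 ± 0.244 in IKKa-null was just short of the threshold (adjusted p = 0.0518) and so was that of -0.63 ± 0.244 in reconstituted cells (adjusted p = 0.0823). Incenp and Cdca8 were not called between reconstituted cells and wild type, at -0.44 ± 0.186 and -0.43 ± 0.19 (adjusted p = 0.107 and 0.119); the dimmer Cdca8 probe was called there, at -1.11 ± 0.191 (adjusted p = 0.00574).

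Cenpa, the histone H3 variant that marks centromeres, gave 6533.0 and 6405.4 units in wild type, 5199.1 and 5518.5 in IKKa-null and 6521.7 and 4631.8 in reconstituted cells, and its change of -0.51 ± 0.174 in IKKa-null was not called (adjusted p = 0.0678, limma). Cenpe, the kinetochore kinesin that brings chromosomes to the spindle equator, gave 1080.4 and 1302.6, 1246.1 and 1511.0, and 1510.7 and 1165.6 units. After normalization both IKKa-null and both reconstituted arrays lay above wild type, and no comparison was called.

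Of the 5 condensin and topoisomerase genes tested, 3 fell in IKKa-null cells, beside 15.4% of all genes. Ncapd2, a regulatory subunit of condensin I, which compacts mitotic chromosomes, gave 564.8 and 677.3 units in wild type, 363.2 and 397.4 in IKKa-null and 704.1 and 558.8 in reconstituted cells. The reconstituted values overlapped wild type and lay above both IKKa-null arrays. The log2 change was -0.97 ± 0.178 in IKKa-null against wild type (1.96-fold lower, adjusted p = 0.00886, limma) and 1.10 ± 0.178 in reconstituted against IKKa-null (2.15-fold higher, adjusted p = 0.00952), and reconstituted against wild type was not called (adjusted p = 0.578). The call between reconstituted and IKKa-null cells was lost without either IKKa-null array and under median scaling.

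Ncaph, the subunit that closes the condensin I ring, gave 622.5 and 606.4 in wild type, 426.4 and 421.2 in IKKa-null and 420.2 and 331.8 in reconstituted cells. Unlike Ncapd2, it was lower than wild type in both lines, at -0.75 ± 0.203 (1.68-fold lower, adjusted p = 0.0335, limma) in IKKa-null and -0.81 ± 0.203 in reconstituted cells (1.75-fold lower, adjusted p = 0.0212). The 2 subunits differed in the comparison of reconstituted with IKKa-null cells in that Ncaph was not called there (adjusted p = 0.88); the difference between the genes was not tested.

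Top2a, topoisomerase II alpha, which untangles sister chromatids, gave 1668.4 and 2231.5 units in wild type, 1278.3 and 1253.6 in IKKa-null and 1891.0 and 967.1 in reconstituted cells. Its change was -0.77 ± 0.197 in IKKa-null (1.71-fold lower, adjusted p = 0.0268, limma) and -0.47 ± 0.197 in reconstituted cells, which was not called (adjusted p = 0.0994). The core ATPases Smc2 and Smc4, shared by condensins I and II, gave 924.4 to 1413.5 and 288.3 to 362.1 units over the 6 arrays, overlapped between wild type and IKKa-null, and were not called by their brightest probe.

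Of the 31 genes, 9 had several tested probes, and these did not always move together. For Birc5 3 of 3 probes fell in IKKa-null cells, with changes from -0.92 to -0.65, and for Cdca8 2 of 2, from -1.15 to -0.75. Cdc25c fell on 2 of 3 probes, Spc24 on 1 of 2 and Top2a on 1 of 2, where the dimmer probe was not called (adjusted p = 0.957, limma). For Smc2 the 2 dimmer probes fell, with log2 changes of -1.11 and -1.08 (limma adjusted p = 0.0156 and 0.0254), while the brightest did not; they gave 145.8 to 290.9 units, close to background. In reconstituted against wild-type cells 4 genes had a dimmer probe that was called where the brightest was not. By the brightest probe 36.9% of all genes were called there in either direction. The dimmer Cenpa probe rose by 0.92 ± 0.189 (adjusted p = 0.0103, limma), and another was the Cdca8 probe given above. For Smc4 1 of 3 probes fell by 1.10 ± 0.235 (adjusted p = 0.0123, limma). For Smc2 1 of 3 fell by 1.33 ± 0.27 (adjusted p = 0.01, limma). These Smc4 and Smc2 probes were not above background on reconstituted replicate 2. Plk1 and Nuf2 each had a second probe that was above background on 0 arrays and was not tested. It gave 108.6 to 134.6 units for Plk1 and 74.1 to 116.9 for Nuf2, so the change of each gene rests on 1 probe. Over all 45 tested probes of the set, 21 fell and 1 rose in IKKa-null cells. Of all 11659 probes 1630 fell and 1745 rose, 28.9% in either direction.

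**Figure D5:**
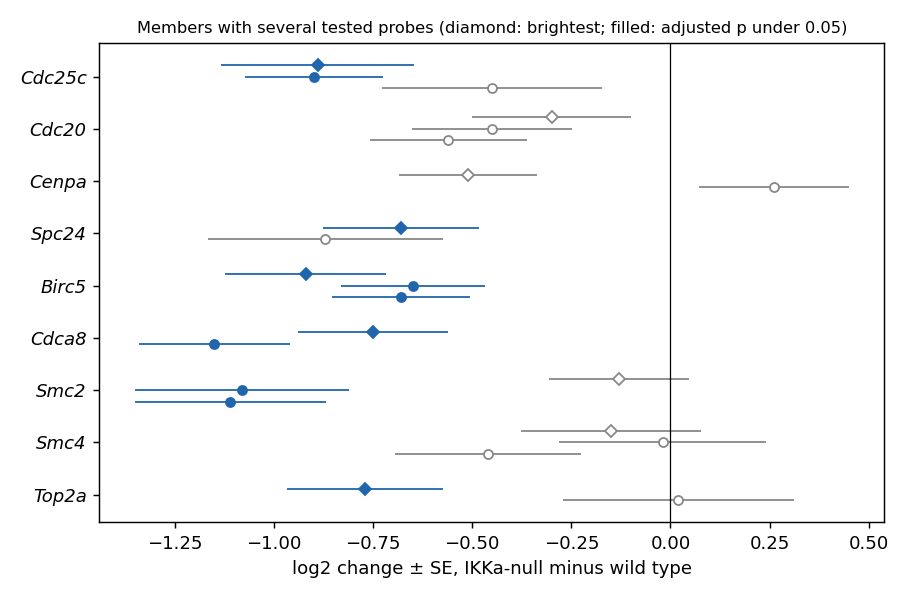
Log2 change ± SE (x axis) between IKKa-null and wild-type cells for each tested probe of the 9 genes with several, with the brightest probe as a diamond and filled symbols where the adjusted p was under 0.05 (limma, 2 arrays a group). All 3 Birc5 and both Cdca8 probes are filled, while for Smc2 the diamond lies near 0 and the 2 dimmer probes near -1.1.

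Other mitosis genes outside the set were counted from lists of related genes. Beside the counts between IKKa-null and wild type stand 15.4% of all genes that fell and 13.6% that rose. Of 19 tested kinetochore and centromere genes 6 fell in IKKa-null against wild-type cells, among them Zw10, a checkpoint protein of the RZZ complex (-0.86 ± 0.165, adjusted p = 0.0105, limma), and Zwilch of the same complex (-0.80 ± 0.219, adjusted p = 0.0338). Of 20 spindle and kinesin genes 7 fell and 3 rose. Psrc1, a spindle protein that is a p53 target, gave 157.0 and 156.2 units in wild type, 263.9 and 410.3 in IKKa-null and 177.0 and 181.3 in reconstituted cells, at least 2.84-fold higher in IKKa-null than in wild type, where it was below background (adjusted p = 0.00809). Psrc1 was 2.57-fold lower again in reconstituted than in IKKa-null cells (-1.36 ± 0.313, adjusted p = 0.0332). Dlgap5, a spindle assembly factor, rose by 1.03 ± 0.204 (adjusted p = 0.0117), and Stmn1, stathmin, which destabilizes microtubules, fell by 1.07 ± 0.243 (adjusted p = 0.0187).

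Of 25 entry, checkpoint and exit genes 8 fell in IKKa-null cells, with Cdc25a, a phosphatase that activates CDKs, at -1.11 ± 0.216 (adjusted p = 0.011, limma) and Mybl2, the transcription factor that joins the MuvB complex, at -0.86 ± 0.247 (adjusted p = 0.0389). Of 15 condensin and cohesin genes 4 fell, led by Ncapd3, a condensin II subunit, at -1.32 ± 0.236 (adjusted p = 0.00813), and by Pds5b, a cohesin regulator, at -1.10 ± 0.172 (adjusted p = 0.00497). Pds5b, like Ncapd2, was higher in reconstituted than in IKKa-null cells (0.70 ± 0.172, adjusted p = 0.0419). Over 83 tested mitosis genes outside the set, 25 fell and 3 rose in IKKa-null against wild type, with a median of -0.52. Over all genes 15.4% fell and 13.6% rose, with a median of -0.12. In reconstituted against IKKa-null cells 3 rose and 2 fell, beside 6.89% and 7.41% of all genes. In reconstituted against wild-type cells 20 fell and 1 rose, beside 21.3% and 15.6%.

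The genes of DNA replication and the G1/S transition, which act earlier in the cycle, gave the highest share of falls among the lists counted outside the set. Of 39 tested, 23 fell in IKKa-null against wild-type cells (median -0.75) and 21 in reconstituted against wild-type cells (median -0.87), while 1 (Rrm2) fell in reconstituted against IKKa-null cells (median 0.04). Over all genes the shares that fell were 15.4%, 21.3% and 7.41% in the same order. Cdc6, which loads the replicative helicase, was at -1.41 ± 0.164 in IKKa-null (adjusted p = 0.00168, limma) and -1.38 ± 0.164 in reconstituted cells (adjusted p = 0.00157), and Mcm7, a helicase subunit, at -1.34 ± 0.161 in IKKa-null (adjusted p = 0.00192). Mki67, a marker of cycling cells, gave 1272.1 and 1165.1 units in wild type, 1105.1 and 1229.4 in IKKa-null and 1844.3 and 1136.3 in reconstituted cells. Wild type and IKKa-null overlapped, both reconstituted arrays were higher after normalization, and no comparison was called (limma adjusted p from 0.127 to 0.564). Cdkn1a, the CDK inhibitor p21 and a p53 target, gave 618.8 and 615.9 in wild type, 3899.9 and 4251.5 in IKKa-null and 1613.9 and 776.2 in reconstituted cells. It was highest in IKKa-null, 2.79 ± 0.222 above wild type (6.90-fold, adjusted p = 0.00042) and 1.70 ± 0.222 above reconstituted cells on the log2 scale (3.25-fold, adjusted p = 0.00411). The part of these differences, of the number of cells in mitosis and of the large T signal in the values of the mitosis genes was not tested. Of the reference genes, Actb was -0.60 ± 0.173 in IKKa-null against wild type (adjusted p = 0.0402) and Gapdh was not called (adjusted p = 0.496).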

How the data were processed

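The deposited array files hold 1 average bead intensity per target; per the file headers they were exported from BeadStudio 1.5.0.34 without normalization. The deposited series matrix holds a second set of intensities, equal to the raw values after quantile normalization on a linear scale. The method the authors used was not given in the sources used here. The alternative on the matrix values is thus in effect the one with no background correction. Probe names were taken from the platform annotation after the targets and matrix probes had been matched by value.

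Intensities were background-corrected with nec of limma 3.58.1 (R 4.3.3; 394 background probes as negative controls, 352 immune-receptor segments and 42 control targets, offset 16, since the files hold no detection values), quantile-normalized and log2-transformed. A probe whose signal fewer than 1% of the background probes reached counted as above background on that array, and was tested when this held on at least 2 of 6 arrays. The number of arrays limits the precision. lmFit and eBayes estimated a mean per group from the 6 arrays (3 residual degrees of freedom, prior 3.97), two-sided, with Benjamini-Hochberg adjustment over 11659 probes. A gene was represented by its brightest tested probe. A bound on a fold sets the bright group against the higher of the dim probe's signal and the lowest signal above background on each array. Levels are not compared between genes.

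Genes, lists, promoters and tests were chosen with earlier results of these data known. All members may be named, with values on every array for those called between IKKa-null and wild-type or reconstituted and IKKa-null cells, some others being added after their values were seen; up to 4 called genes of each other list could be named. Separate cultures are not stated in the labels, and the p-values therefore rest on a spread that may be technical. On simulated data with few changed probes, the same fit recovered 0% of log2 changes of 0.5 or 1. It recovered 81.8 to 84% of changes of 2. With few changed probes the adjustment is stricter than in the data, where 28.9% of probes were called between IKKa-null and wild type. These shares therefore cannot be carried over to the data. Alternatives covered background correction, scaling, filtering, the matrix values, a replicate block, probe averaging and each array left out.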

Additional observations from a re-analysis of the deposited data

How the results depend on the processing

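Called genes of the set, 16 between IKKa-null and wild type, came to 4 under median scaling (1 higher, 3 lower) and to 5 to 16 with 1 array left out; the fits without 1 array leave a group with a lone sample, assumed to vary like the others. For reconstituted against IKKa-null the 3 calls became 5 with no background correction, with an offset of 50 and on the deposited matrix values, 1 under median scaling and 0 to 3 with 1 array left out (limma; 3 and 5 genes at an unadjusted p under 0.05 in the fits with 0 calls). For reconstituted against wild type the 9 calls became 14 with no background correction and on the matrix values, and 4 to 9 with 1 array left out. Called probes numbered 3375 between IKKa-null and wild type (1745 higher, 1630 lower), 1966 under median scaling (1346 and 620), 3399 under cyclic loess (2047 and 1352) and 1486 to 3497 with 1 array left out. Between reconstituted and IKKa-null cells they numbered 1555 (753 and 802), 980 under median scaling (357 and 623) and 545 to 1265, and between reconstituted and wild type 4242, 2572 under median scaling and 2076 to 3748. The median change of the tested genes between reconstituted and IKKa-null cells, 0.15, was -0.08 under median scaling, which placed the median of all probes at -0.18 in place of -0.01 there; the cause of the other shifts was not tested.

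Replicate numbers were shared between groups, but nothing in the labels pairs the arrays: same-numbered arrays deviated from their group means with correlations of 0.297 (wild type and IKKa-null), 0.37 (IKKa-null and reconstituted) and 0.0507 (wild type and reconstituted). With the replicate block 17, 4 and 10 genes of the set were called in the same order of comparisons, and 3611, 1668 and 4518 probes; the added genes were Aurkb in both comparisons with wild type (adjusted p = 0.0274 and 0.0443, limma) and Plk1 in reconstituted against IKKa-null cells. Among single-gene changes, 631 values kept their direction and call, 84 lost the call, 44 gained it. Changes of a gene's brightest probe that were not called and under 0.35 in size, a limit set after the values were seen, were not given: of 42 of these, 26 turned sign under some alternative. Pttg1 and Nuf2 were outside the fit of probes above background on all 6 arrays. Signal near background limits Nuf2, Ndc80, the dimmer Smc2 probes, the called Smc4 probe and the 10 genes not tested.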
